A study of Homo sapiens with 2 samples.

Results

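The genes described here are members of the p53 family, the inhibitors of p53 and the genes that p53 is known to switch on, as expressed in a line without p53. The cells were HL-60, an established human line from a promyelocytic leukaemia, in which most of the p53 gene is known to be deleted. The labels give 2 samples, replicates 1 and 2 of the wild-type (WT) line with no treatment named, each hybridised to an Affymetrix GeneChip (Human Gene 1.0 ST). The members are 32 genes given by name. Of these, 29 had a probe set of their own, 1 each, among 18404 named genes, and none of those probe sets was shared with another gene symbol. TP63, BTG2 and FDXR matched no listed probe set and are not reported here. The arrays form 1 group, so no comparison between groups and no p-value exists, and each value is given for both arrays or as mean ± SD (n = 2). Whether the replicates are separate cultures is not stated, and their spread may therefore be technical only. Each value is a deposited log2 signal made with RMA. Probes differ in how strongly they bind, so levels are set against background and between arrays. Median signals, and the choice of genes to name from 2 further lists below, do use levels across genes. Otherwise no gene is set against another.

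p53 is a transcription factor held at a low level by the ubiquitin ligase MDM2 and its partner MDM4. DNA damage and other stress release it, and it then binds a paired decamer element near its target genes and raises their transcription. Those targets arrest the cell cycle, repair DNA, remove reactive oxygen or trigger apoptosis, and MDM2 itself is among them, which closes a feedback loop. The relatives p63 and p73 bind much the same element. Most of the targets also answer to other factors, so a signal from one of them does not need p53. The values below describe the signal of these genes in a line without p53, and no line with p53 was measured.

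Several members carry close matches to the p53 element at their RefSeq start sites. The sequences are shown because p53 is known to bind elements of this form. RefSeq promoter windows (GRCh38.p14, 250 bases before to 50 after each annotated start) were at hand for 26 of the 32 members. The p53 decamer, which reads the same on both strands, was found without mismatch in 7 of the 26 (26.9%), namely PLK2, SESN1, DDB2, RPS27L, AEN, FAS and FDXR. It was found in 8.06% of the 27305 genes with such a window and in 6.63% of all 35116 windows. A pair of decamers without mismatch, at most 13 bases apart, was found for DDB2 alone and in 0.0366% of genes (0.0285% of windows). With at most 3 mismatches over both decamers, at most 1 base between them and the central C and G of each kept, a pair was present in 10 members (38.5%), against 2.91% of genes and 2.38% of windows. With at most 2 mismatches it was present in 5 members (19.2%), against 0.674% of genes. The searches with mismatches were chosen after the data were seen. Most members were listed as known p53 targets, so a share above that of all genes was to be foreseen and is not a finding. A match is a run of letters and not a bound site, and a gene with several starts had several windows. The 9 matches of members with a value follow, 5′ to 3′ on the gene's strand, with the match in capitals and flanks in lower case. The capitals are a pair of adjoining decamers, except in DDB2, where they include 1 base between the decamers. DDB2 had no mismatch, MDM2, FAS, AEN and TP73 had 2, and SESN1, PMAIP1, RPS27L and TP53AIP1 had 3. The DDB2 match lies 6 to 26 bases after the annotated start of its window, and the others lie before the start of theirs. Where a gene has several starts, as MDM2 (4 windows) and FAS (3 windows) do, a match may lie downstream of another start.
DDB2, chr11:47214975-47215004, plus strand: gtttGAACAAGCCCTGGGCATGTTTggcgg
MDM2, chr12:68808918-68808947, plus strand: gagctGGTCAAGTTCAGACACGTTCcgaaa
FAS, chr10:88991304-88991333, plus strand: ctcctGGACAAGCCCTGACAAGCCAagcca
AEN, chr15:88621301-88621330, plus strand: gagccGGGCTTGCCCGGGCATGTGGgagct
TP73, chr1:3690591-3690620, plus strand: tcaccGGGCAAGCTGAGGCCTGCCCcggac
SESN1, chr6:109009013-109009042, minus strand: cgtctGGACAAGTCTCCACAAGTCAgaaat
PMAIP1, chr18:59899806-59899835, plus strand: gtcggGAGCGTGTCCGGGCAGGTCGcgctc
RPS27L, chr15:63157522-63157551, minus strand: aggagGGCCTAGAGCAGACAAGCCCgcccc
TP53AIP1, chr11:128942895-128942924, minus strand: tgagaGGCCGTGCTCGGGCTCGCCTgctca

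Background was read from 359 olfactory receptor genes, which a myeloid line has no known use for. Their 95th percentile, called the olfactory threshold, was 2.98 on replicate 1 and 2.88 on replicate 2, and their 99th percentile was 3.60 and 3.76. A second and stricter background, the 95th percentile of 115 keratin-associated, bitter taste receptor and beta-defensin genes, lay at 5.41 and 5.23. The markers were those of a myeloid line: all 6 measured promyelocyte and myeloid genes, among them MPO and PRTN3, passed the olfactory threshold on both arrays and 5 passed the second background. Of 15 measured T cell, B cell, erythroid, epithelial and monocyte markers 3 passed the first (CD79A, KRT18 and LYZ) and 0 the second on both arrays. KRT18 was the mean of 2 probe sets that disagreed, at 2.75 and 5.13 on replicate 1, and the lower passed the olfactory threshold on replicate 2 only. CD3E, MS4A1, HBB and EPCAM were below background on both arrays. Over all named genes the SD of the difference, replicate 2 minus replicate 1, was 0.39, or 0.28 per array.

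Most members had signal above the olfactory threshold in this line without p53, but few were far above it. On both arrays 22 of 29 members (75.9%) passed that threshold, against 55.8% of all named genes. On replicate 1 alone 24 passed, against 58.6%, and on replicate 2 alone 23, against 60.5%. At the 99th percentile of olfactory genes, 12 members (41.4%) passed against 40.0% of all named genes, and at the second background 4 (13.8%) against 17.0%. The other 10 of the 22 passed the 95th percentile on both arrays but not the 99th on both (TNFRSF10B and ZMAT3 passed the 99th on replicate 2), so the members' share was near that of all genes once the limit was raised. The 12 members above the 99th percentile were MDM2, MDM4, PPM1D, SESN1, XPC, DDB2, ASCC3, BAX, PMAIP1, TRIAP1, CYFIP2 and TP53I3. Of the other members 3 passed the olfactory threshold on 1 array only, against 7.60% of all named genes, and 4 on neither, against 6744 of the 18404 named genes. The median signal over the 29 members was 3.47, beside 3.33 over all named genes.

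**Figure D1:**
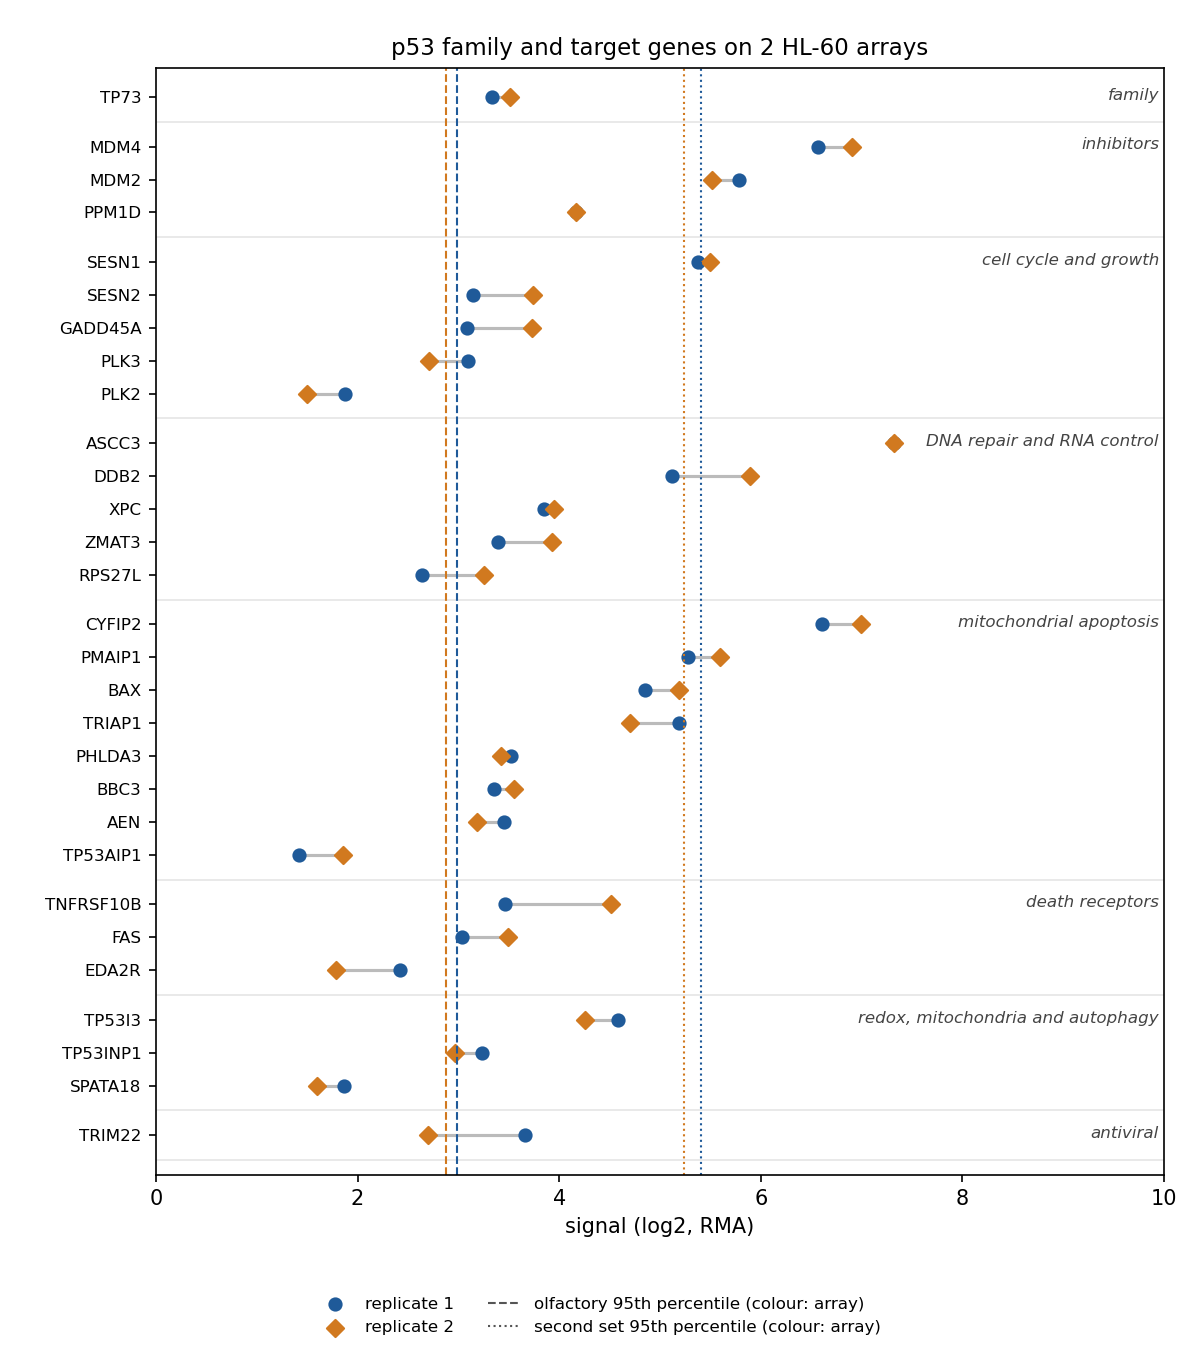
Signal (log2, RMA; horizontal axis) of the 29 members, grouped by role, on replicate 1 (circles) and replicate 2 (diamonds); dashed and dotted lines mark the 95th percentiles of the olfactory and second background genes on the array of the same colour. MDM2, MDM4, CYFIP2 and ASCC3 lie right of all lines on both arrays, whereas PLK2, TP53AIP1, SPATA18 and EDA2R lie left of the olfactory lines on both.

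The family itself was represented by TP73, which encodes a p53-like factor. TP73 read 3.34 on replicate 1 and 3.51 on replicate 2, above the olfactory threshold and below its stricter 99th percentile on both arrays. The difference of 0.17 was within the spread between arrays, since 62.9% of named genes differed by as much or more.

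All 3 inhibitors of p53 were above the olfactory threshold on both arrays, where 55.8% of all named genes were. The pair that binds p53 directly also passed the second background, which 17.0% of all named genes passed. MDM2, the ligase that marks p53 for degradation, read 5.78 on replicate 1 and 5.52 on replicate 2. Its relative MDM4, which masks the activation domain of p53, read 6.57 and 6.91. PPM1D, the phosphatase WIP1 that removes activating phosphates from p53 and its kinases, read 4.17 on both arrays, to the last deposited digit. Equal values were deposited for 5.23% of named genes, so the SD of 0 for PPM1D does not show a smaller error. MDM2, which carries the paired decamers printed above and is a p53 target as well as an inhibitor, was thus above both backgrounds in this line.

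Among the targets that restrain growth, SESN1 had a clear signal, while SESN2 and GADD45A lay close to background and the Polo-like kinases mostly below it. SESN1, a sestrin that lowers mTORC1 activity under stress, read 5.38 and 5.50, and passed the second background on replicate 2 only. SESN2, another sestrin, known to respond to the ATF4 pathway as well, read 3.15 and 3.74. GADD45A, which halts the cycle after damage, read 3.08 and 3.73. Both SESN2 and GADD45A were thus above the olfactory threshold on both arrays but below its 99th percentile on both. PLK3 read 3.09 on replicate 1, just above the threshold, and 2.71 on replicate 2, below it. PLK2 was not above background on either array, at 1.87 and 1.5, and its window holds a decamer without mismatch.

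CDKN1A, the cell cycle inhibitor p21 and the best known p53 target, is no member of the list and was looked up after the members' values were seen. It read 2.03 on replicate 1 and 2.40 on replicate 2, not above background on either array.

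The genes of DNA repair and RNA control ranged from above both backgrounds down to the olfactory threshold. ASCC3, a helicase subunit of the alkylation repair complex that also acts on stalled ribosomes, read 7.32 on both arrays and passed both backgrounds. DDB2, which recognises ultraviolet lesions in nucleotide excision repair, read 5.12 and 5.90. The difference of 0.78 on the log2 scale (1.72-fold) was matched or exceeded by 5.10% of named genes. XPC, the partner damage sensor of the same pathway, read 3.85 and 3.95 and so differed little. ZMAT3, an RNA-binding zinc finger protein, read 3.40 and 3.93. RPS27L, a ribosomal protein paralogue, passed the olfactory threshold on replicate 2 only, with 2.63 and 3.26. Its coding sequence resembles RPS27, so its signal is uncertain where probes match both.

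Of 8 genes that act on mitochondrial apoptosis or around it, 7 were above the olfactory threshold on both arrays, where 55.8% of all named genes were. BAX, which forms pores in the outer mitochondrial membrane, read 4.85 and 5.19. The BH3-only genes of this group stood differently to background. PMAIP1, which encodes NOXA, read 5.28 and 5.60, above the second background on replicate 2 only, whereas BBC3, which encodes PUMA, read 3.36 and 3.55, below the 99th percentile of olfactory genes. TP53AIP1, a mitochondrial p53-regulated apoptosis protein, was not above background, at 1.42 and 1.85. TRIAP1, which counters apoptosis and supports cardiolipin synthesis, read 5.19 and 4.70. AEN, a nuclease active during apoptosis, read 3.46 and 3.18, and PHLDA3, which competes with AKT for membrane lipids, read 3.52 and 3.42. Both passed the olfactory threshold only. CYFIP2, a subunit of the WAVE actin regulatory complex first linked to p53 through apoptosis, read 6.61 and 6.99 and passed both backgrounds.

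Death receptor genes were near background on replicate 1. FAS, the receptor for FAS ligand, read 3.04 and 3.49, so on replicate 1 it cleared the threshold by little. TNFRSF10B, which encodes the TRAIL receptor DR5, read 3.46 and 4.52. It was the only member with a difference above 1 on the log2 scale, 1.06 or 2.08-fold higher on replicate 2. EDA2R, the ectodysplasin A2 receptor, read 2.42 and 1.78 and was above background on neither array.

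The redox, mitochondrial and autophagy genes spanned the threshold. TP53I3, a quinone oxidoreductase also called PIG3, read 4.59 and 4.26. TP53INP1, a regulator of autophagy and of p53 phosphorylation, read 3.24 and 2.97, above the olfactory threshold on both arrays and below its 99th percentile. SPATA18, which takes part in mitochondrial quality control, read 1.86 and 1.60 and did not pass. All 3 read lower on replicate 2, by 0.27 to 0.33, a size that 36.1% of named genes or more reached. TRIM22, an interferon-inducible antiviral ligase, read 3.66 on replicate 1 and 2.69 on replicate 2. It passed the threshold on replicate 1 only, and no fold is given because replicate 2 was not above background. A difference of this size was reached by 2.25% of named genes.

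More members read higher on replicate 2 than on replicate 1. Of the 29 members 17 were higher on replicate 2, against 42.1% of all named genes, 11 were lower, against 52.6%, and 1 was equal. After quantile normalization or removal of a loess trend 17 members were still higher, against 49.8% and 50.3% of all named genes. Their median difference was 0.11, beside -0.04 over all named genes. Only TNFRSF10B (1 of 29) differed by more than 1, against 1.96% of all named genes (1.08% higher and 0.880% lower on replicate 2). At a smaller limit of 0.58, about 1.5-fold, 7 members (24.1%) differed against 12.4% of named genes. TNFRSF10B, DDB2, GADD45A, RPS27L and SESN2 were higher on replicate 2, and TRIM22 and EDA2R lower. With 1 array on each side these differences have no replicate check. They mark the members whose levels are least certain. The markers also differed between the arrays. Of the 6 measured myeloid markers 4 were lower on replicate 2 (CTSG by 1.75, PRTN3 by 1.48, MPO by 0.73 and SRGN by 0.25) and 2 higher (ELANE and MYB, both by 0.24), and the monocyte marker LYZ read 6.50 and 4.24. The part of such differences in the members' values was not tested.

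**Figure D2:**
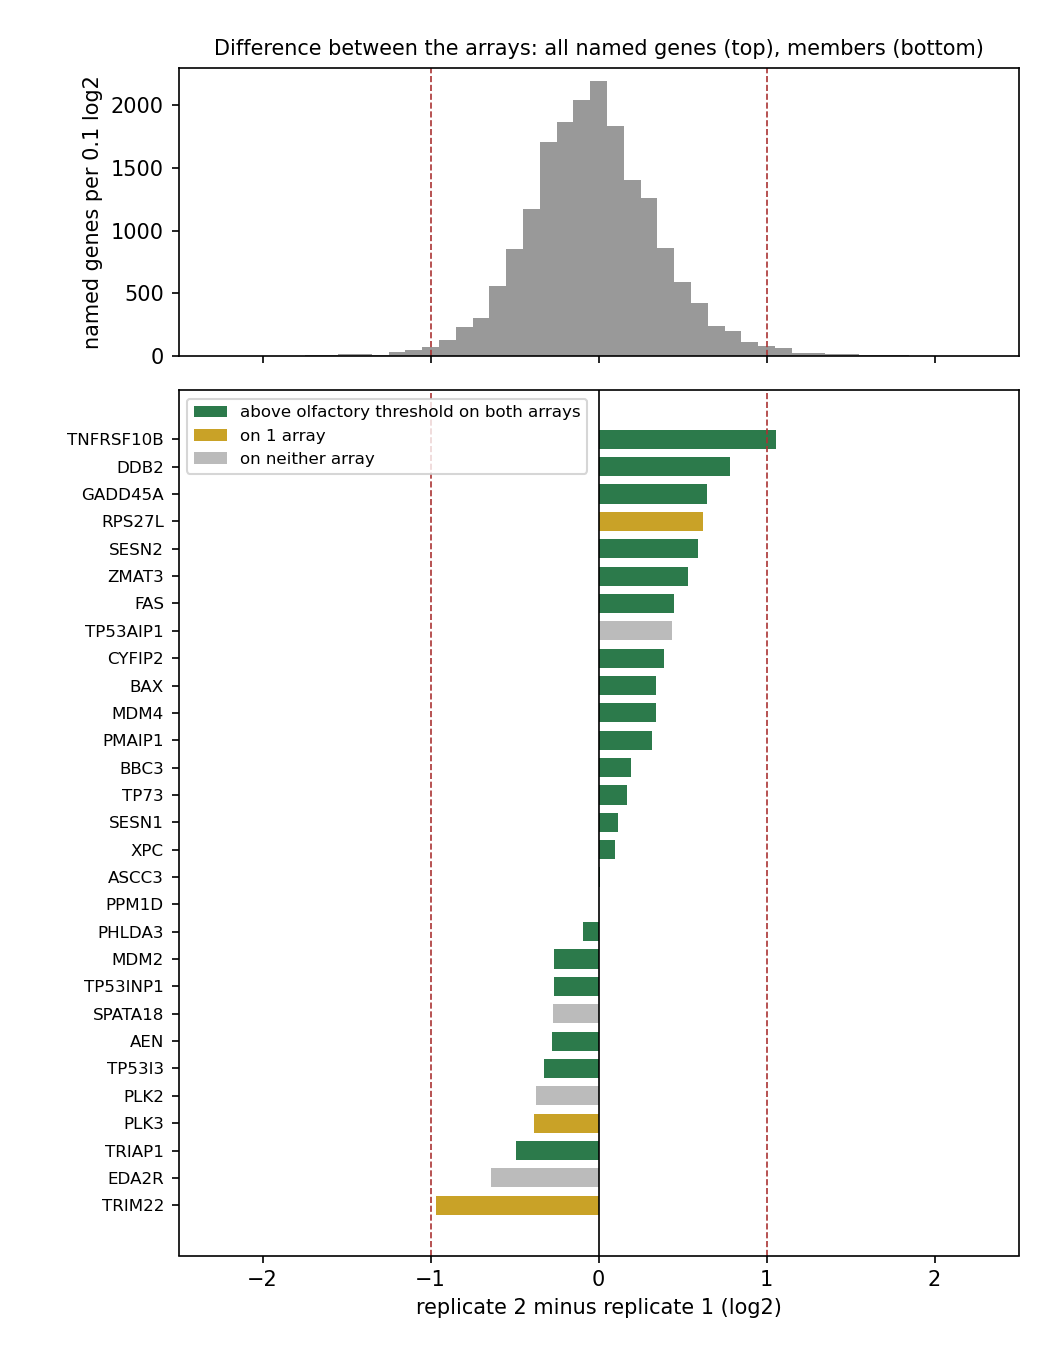
Difference between the arrays (replicate 2 minus replicate 1, log2; horizontal axis) for all 18404 named genes as a histogram in steps of 0.1 (top) and for each of the 29 members as bars coloured by the number of arrays on which the gene passed the olfactory threshold (bottom); dashed lines mark a difference of 1, and the few genes beyond the axis limits are not shown. TNFRSF10B alone crosses a dashed line, at 1.06, and TRIM22 falls just short on the other side, at -0.96.

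The rest of the pathway was read from 2 further lists. Of 20 upstream kinases, cofactors and ligases, 18 passed the olfactory threshold on both arrays (90.0%, against 55.8% of all named genes), 15 its 99th percentile (75.0%, against 40.0%) and 10 the second background (50%, against 17.0%). The bromodomain cofactor BRD7 (7.37 ± 0.27), the deubiquitinase USP7 (7.01 ± 0.01), which stabilises MDM2 and p53, and the arginine methyltransferase PRMT5 (6.98 ± 0.62) passed both backgrounds. PPP1R13B (2.81 ± 0.17) was above the olfactory threshold on neither array, and the kinase gene TP53RK (2.93 ± 0.04) on replicate 2 only. Genes differing by more than 1 between the arrays were HIPK2, a kinase of p53, with 4.78 and 5.85, and DAXX, with 5.73 and 3.90. DAXX had 2 probe sets that disagreed: the first read 5.25 on replicate 1 and 1.41 on replicate 2, and the second read 6.21 and 6.38, so its lower mean rests on the first.

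Of 28 further p53 targets with a value, 17 passed the olfactory threshold (60.7%, against 55.8% of all named genes), 14 its 99th percentile (50%, against 40.0%) and 3 the second background (10.7%, against 17.0%). Those 3 were RPS27, the cyclin gene CCNG1 (6.62 ± 0.26) and POLH (6.28 ± 0.01), the polymerase that copies past ultraviolet lesions. The signal of RPS27 (8.58 ± 0.45) came from 2 probe sets more than 3 apart, at 6.47 and 10.05 on replicate 1. TIGAR, which limits glycolysis (2.04 ± 0.12), and the autophagy gene DRAM1 (2.11 ± 0.43) were above background on neither array. None of the 28 differed by more than 1 between the arrays, against 1.96% of all named genes. On replicate 2, 14 were higher, against 42.1%, and 14 lower, against 52.6%. These counts are descriptions of lists made by name.

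**Figure D3:**
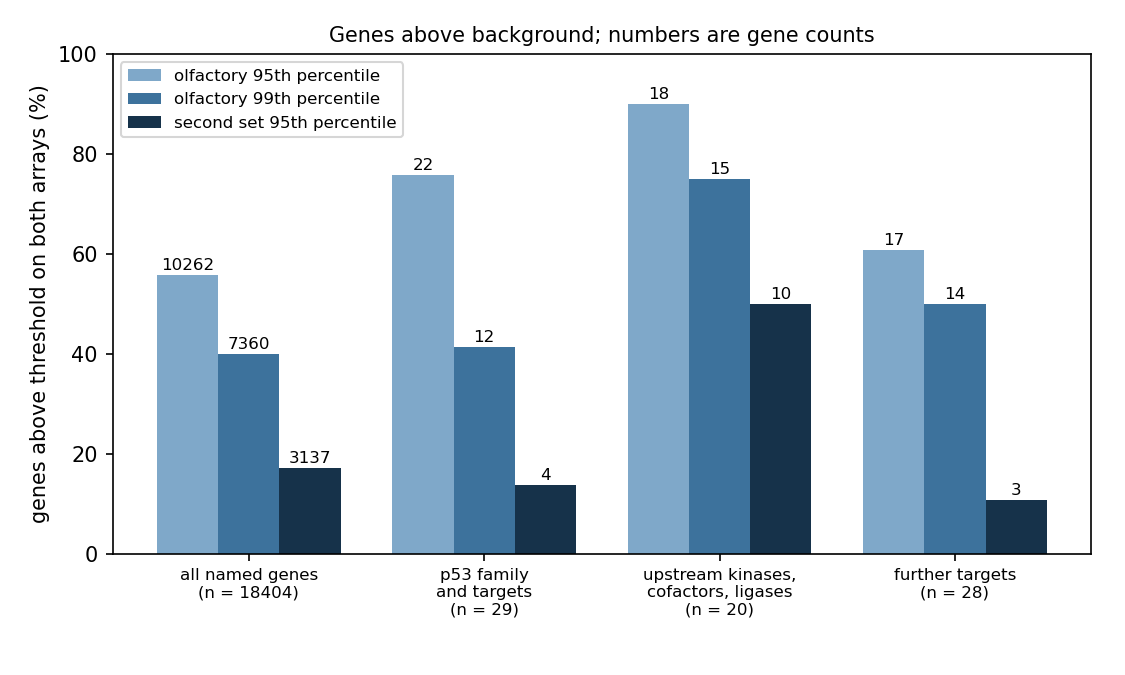
Percentage of genes (vertical axis, from 0) above each of 3 background limits on both arrays, for all named genes, the 29 members, the 20 upstream genes and the 28 further targets; the number over each bar is the count of genes. The members exceed all named genes at the olfactory 95th percentile (22 of 29), and lie near them at the stricter limits (12 and 4 of 29).

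Matches to the p53 element were set beside the members' signals. Of the 9 members with a value and a paired match of at most 3 mismatches 7 were above the olfactory threshold on both arrays, as were 10 of the 14 with a window and no such match. Of all 14230 named genes with a window, 8264 were above that threshold on both arrays. The 5 with at most 2 mismatches (DDB2, MDM2, FAS, AEN and TP73) were all above the olfactory threshold on both arrays. So were 12 of the 18 without such a match. At the 99th percentile of olfactory genes DDB2 and MDM2 passed on both arrays, while FAS, AEN and TP73 did not. Of those with 3 mismatches, SESN1 and PMAIP1 passed both limits on both arrays, and TP53AIP1 and RPS27L passed neither on both. With so few genes these shares are a description.

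Because the study's design concerns DNA methylation, the CpG content of the windows was also described. Methylation itself was not measured on these arrays. A CpG count above 0.6 of that given by base composition is 1 of the usual marks of a CpG island. For a gene with several windows the highest ratio was taken. Of the 23 members with a value and a window, 19 (82.6%) passed this limit, against 72.3% of named genes with a window. The 4 below this limit were BBC3 (0.31), TP53AIP1 (0.39), TP53I3 (0.41) and DDB2 (0.56). Over all named genes, 87.3% of those above the olfactory threshold had a CpG-rich window and 51.4% of those not above it. Among the members the shares were 14 of 17 and 5 of 6, so members that did not pass on both arrays, such as PLK2 (1.09) and SPATA18 (0.78), mostly had CpG-rich windows too. The 6 include PLK3 and RPS27L, which each passed on 1 array.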

How the data were processed

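HL-60 cells were grown with 10% serum at 37 °C and 5% CO2, and 200 ng of RNA per sample was amplified, biotin-labelled and hybridised, per the labels' protocols. The deposited log2 signals were made by the authors with RMA, per the submitters' processing notes; its software and version and the log base are not given in the sources used. Base 2 was taken as RMA's own scale (highest value 12.9). No scanner files were used here, so detection calls, scan batches and probe affinity were not examined, and RMA hides global differences in RNA content.

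Of 32321 probe sets, 19158 had 1 symbol in the platform annotation, 1388 several and 11775 were not listed. Symbols were updated through Entrez IDs (RefSeq, GRCh38.p14), and several probe sets of 1 gene were averaged. Members were matched by symbol, Entrez ID and accession. All members with a value are named. Of the 2 further lists, the 3 highest, the 2 lowest and genes differing by more than 1 are named. Members and lists were chosen with earlier results of these data known. The threshold and difference counts were tested on simulated data, with genes set well away from the threshold or changed by well over the limit of 1. That test does not show how calls close to a limit fare, such as those of FAS, TP53INP1 and TNFRSF10B. Python 3.11.15, numpy 2.4.6, pandas 2.3.3, statsmodels 0.14.6 and matplotlib 3.10.9 were used. The number of arrays limits the precision.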

Additional observations from a re-analysis of the deposited data

How the results depend on the processing

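No paired analysis was possible because the labels give a single group of 2 arrays. The count of 22 members above background was 22 with quantile normalization of the arrays, and 23 to 24 on single arrays. It was also 22 with the highest probe set per gene and with a filter at the 25th percentile of signal. Neither of these could have shown a change in the members' own values. No member had more than 1 probe set, and the filter lies below the olfactory threshold. It was 12 at the olfactory 99th percentile and 4 at the second background, both of which set a higher threshold. For the 2 further lists together the count was 35, and 13 at the second background, with 29 to 38 under the other alternatives. Members differing by more than 1 numbered 1 in each alternative except the limit of 0.58, which gave 7. The highest probe set per gene again could not change a member's difference. The difference of TNFRSF10B was 1.04 after quantile normalization and 1.05 after removal of a loess trend. The median difference of the members was 0.08 after quantile normalization, 0.11 after loess and 0.18 among members above background, and 17 members were higher on replicate 2 under each scaling, when 49.8% and 50.3% of all named genes were. The median signal was 3.46 on replicate 1 and 3.74 on replicate 2. Members with a pair of decamers numbered 1 without mismatch, 5 with at most 2 and 10 with at most 3. For single genes 162 of 164 recomputed values stayed within 0.28. Of the 164 values 41 used the highest probe set, and 39 of these could not move because the gene had 1 probe set. Only DAXX and RPS27 had more than 1, and both moved, to 6.29 and 10.24. All values recomputed with quantile normalization or loess stayed within 0.28.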
